A study of Homo sapiens with 14 samples.

Results

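The proteasome is the large protease that degrades ubiquitin-tagged proteins, and the genes described here encode its parts. They are 48 protein-coding genes, taken as those whose symbol starts with PSMA, PSMB, PSMC, PSMD, PSME, PSMF or PSMG and a number, with 2 interacting-protein symbols of that form and all pseudogene and antisense symbols left out. Each count table holds 60683 gene identifiers, of which 19895 are protein-coding. Polyadenylated RNA was sequenced from 14 libraries in 7 groups of 2. A549, a human lung cancer line, was left untreated or treated with 2 µM palbociclib, 0.5 µM indisulam or both at these doses for 10 days, or with 0.5 µM PF-06873600 for 7 days. SUM159, a human triple-negative breast cancer line, was left untreated or treated with 0.5 µM PF-06873600 for 7 days. Palbociclib inhibits the cell cycle kinases CDK4 and CDK6, indisulam is a molecular glue that brings the splicing factor RBM39 to the DCAF15 ubiquitin ligase, and PF-06873600 inhibits CDK2 as well as CDK4 and CDK6. The study asked whether blocking CDK2 activity on top of CDK4/6 drives these tumour cells into senescence. The series describes the 2 libraries of a group as technical duplicates, and each line had its own medium in all of its groups, so the p-values below measure the spread between these libraries, which may be technical.

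In the 26S proteasome a barrel-shaped 20S core, built from rings of alpha (PSMA) and beta (PSMB) subunits, holds the proteolytic sites. The 19S regulator, with its ATPase subunits (PSMC) and non-ATPase subunits (PSMD), binds ubiquitin chains, removes them and unfolds the substrate into the core. PSMB5, PSMB6 and PSMB7 carry the chymotrypsin-like, caspase-like and trypsin-like sites of the constitutive core. In the immunoproteasome, which is induced by interferon and favours peptides that fit MHC class I molecules, they are replaced by PSMB8, PSMB9 and PSMB10 respectively. PSME1 and PSME2 together form the interferon-inducible activator PA28, PSME3 forms its nuclear relative, PSME4 is the activator PA200, and PSMF1 is the inhibitor PI31. PSMG1 to PSMG4 are chaperones of core assembly, and PSMD5, PSMD9 and PSMD10 are chaperones of the 19S base. When proteasome activity is limiting, the transcription factor NRF1 (gene NFE2L1) is known to raise the transcription of subunit genes as a set.

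Read counts assigned to genes ranged from 13060374 to 21149256 per library, and the 48 genes took between 0.405% and 0.746% of them. A count of 3, taken as the detection floor, corresponded to 0.142 to 0.230 CPM, the count scaled to a library total of 1000000 gene-assigned reads, and this floor covers counting error only. No library pair was identical. The chi-square of the counts per degree of freedom was largest in the untreated pairs, at 9.57 for A549 and 9.05 for SUM159. In the treated pairs it ran from 1.61 to 5.04. The lines differed in epithelial and mesenchymal markers. The summed level of 5 epithelial keratin and adhesion genes was 4672 to 11845 CPM in A549 and 428 to 755 CPM in SUM159. The 5 mesenchymal genes summed to 967 to 2615 CPM in A549 and 5228 to 6151 CPM in SUM159. In A549 both sums moved with treatment, the epithelial one from 5429 and 4672 CPM in the untreated libraries to 10532 and 10066 CPM with the combination, and their part in the results below was not tested. A list of 5 aldo-keto reductase and NRF2 target genes, high in A549, summed to 20054 and 19512 CPM untreated, 12021 and 11869.6 CPM with indisulam and 6023 and 5876 CPM with the combination, and to 486 to 636 CPM in SUM159. Alveolar markers summed to at most 4.25 CPM, with SFTPB at or under the floor in both lines. The 3 breast receptor genes summed to 109 to 166 CPM in A549 and 118 to 131 CPM in SUM159, ranges that overlap. Of these, PGR was at or under the floor in both lines. The tissue markers thus did not tell the lung line from the breast line.

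Of the 48 genes, 46 were tested in every model. PSMA8, the alpha subunit of germ cells, had no read in any library, and PSMB11, the thymic beta subunit, had 1 read in 1 SUM159 library treated with PF-06873600. Markers of those tissues were near the floor too, with DDX4 at or under it in both lines. Positions are GRCh38 with GENCODE 44. The immunoproteasome genes PSMB8 (chromosome 6, bases 32840717 to 32844679) and PSMB9 (chromosome 6, bases 32844136 to 32859851) lie in the MHC on opposite strands. Their start sites are 10145 bases apart, and that of the peptide transporter gene TAP1 lies between them. The annotated PSMB9 span begins upstream of the start site used here, base 32854192, and overlaps that of PSMB8 at one end. The start sites of PSMB9 and TAP1 are 488 bases apart on opposite strands. PSMB10 is on chromosome 16, bases 67934506 to 67936864. PSME1 (chromosome 14, bases 24136163 to 24138967) and PSME2 (chromosome 14, bases 24143362 to 24147570) start 10416 bases apart. Of the 48 genes, 17 have processed or other pseudogenes, 44 in all, and 6 share exon bases on the same strand with another annotated gene. That overlap covers 100% of the PSMA2 transcript, 81.4% of PSMA6, 67.0% of PSMA1, 56.1% of PSMB10, 28.8% of PSMD9 and 0.1% of PSME2, and values of the first 5 are uncertain because reads there could be counted as ambiguous. PSMC1 shares 83.2% of its transcript with NRDE2 on the opposite strand, and whether counting used strand is not given in the sources used here.

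Upstream sequence is shown for PSMB9, PSMB10 and PSME2, picked among members named in later results because they hold a searched element. Each window is 250 bases from RefSeq on build GRCh38.p14, ending at the base before the start site. The letters run 5′ to 3′ on the strand of the gene, with matches to the searched motifs in capitals:
PSMB9, chr6:32853942-32854191, plus strand: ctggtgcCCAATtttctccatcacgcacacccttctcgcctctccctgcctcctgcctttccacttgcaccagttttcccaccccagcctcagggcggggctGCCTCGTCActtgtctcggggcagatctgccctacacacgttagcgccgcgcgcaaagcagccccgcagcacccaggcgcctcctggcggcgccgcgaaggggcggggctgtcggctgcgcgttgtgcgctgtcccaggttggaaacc
PSMB10, chr16:67936851-67937100, minus strand: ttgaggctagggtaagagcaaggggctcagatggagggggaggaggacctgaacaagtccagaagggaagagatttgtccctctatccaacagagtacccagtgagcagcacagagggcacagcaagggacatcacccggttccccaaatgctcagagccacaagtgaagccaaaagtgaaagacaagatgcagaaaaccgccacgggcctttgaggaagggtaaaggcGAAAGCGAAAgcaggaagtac
PSME2, chr14:24146611-24146860, minus strand: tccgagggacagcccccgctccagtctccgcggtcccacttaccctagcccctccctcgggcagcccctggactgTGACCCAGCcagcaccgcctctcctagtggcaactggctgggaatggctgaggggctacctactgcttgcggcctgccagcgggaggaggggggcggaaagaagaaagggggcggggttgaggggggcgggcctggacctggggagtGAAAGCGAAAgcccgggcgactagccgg
The PSMB9 window holds, on its reverse strand and 148 bases before the start, the antioxidant response element core TGACNNNGC, and a CCAAT box 243 bases before it. In PSMB10 the interferon-stimulated response element core, GAAA repeated after 2 bases of any kind, begins 21 bases before the start. PSME2 has that core 28 bases before its start and the antioxidant core 175 bases before it. The window of PSMB8, not shown, spans bases 32844680 to 32844929 and held no match to any of the searched motifs. The distances given above use another start site of PSMB8, base 32844047. The bases next to that site were not searched. Other members named in later results, such as PSME4 and PSMD12, also hold the antioxidant core and are not shown. On both strands of the 250 bases, the antioxidant core was in 11 of the 42 proteasome genes with a usable RefSeq window (26.2%). It was in 11% of 27305 promoters of the same length. PSMA7, PSMB1, PSMB6, PSMB7, PSMD4 and PSMG3 had no usable window and were not searched. The interferon-stimulated core was in 5 of 42 (11.9%; PSMA4, PSMB4, PSMB10, PSME2 and PSMG4) against 3.07% of all promoters. The gamma-activated core TTCNNNGAA was in 11.9% against 6.78%, and CCAAT in 42.9% against 33%. These motifs can overlap one another, and a match describes letters in a window only.

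As summed levels, constitutive core and 19S transcripts were far more abundant than immunoproteasome transcripts in every library. Per kilobase of transcript, levels in untreated A549 ran from 202 CPM for the core subunit PSMB4, 197 for the ATPase PSMC4 and 183 for PSME1 down to 7.16 for PSMB10, 6.88 for PSMB9, 5.95 for PSMD9 and 4.84 for PSMA2 among the tested members. The catalytic genes PSMB5, PSMB6 and PSMB7 stood at 151, 134 and 90.1 CPM per kilobase, and PSMB8 at 24.6. Summed over the 14 constitutive core genes, the level was 1465 and 1554 CPM in the untreated A549 libraries and 1278 and 1215 CPM with the combination, the lowest of the 5 A549 groups. The 17 genes of the 19S regulator summed to 2123 and 2149 CPM in untreated A549. In SUM159 they summed to 3848 and 3679 CPM untreated and 2407 and 2408 CPM with PF-06873600. The 3 immunoproteasome genes together made up 40.6 and 42.7 CPM in untreated A549 and 163 and 172 CPM in treated SUM159, the ends of their range over groups. In bulk RNA, fewer cells of a kind and less RNA per cell cannot be told apart.

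**Figure D1:**
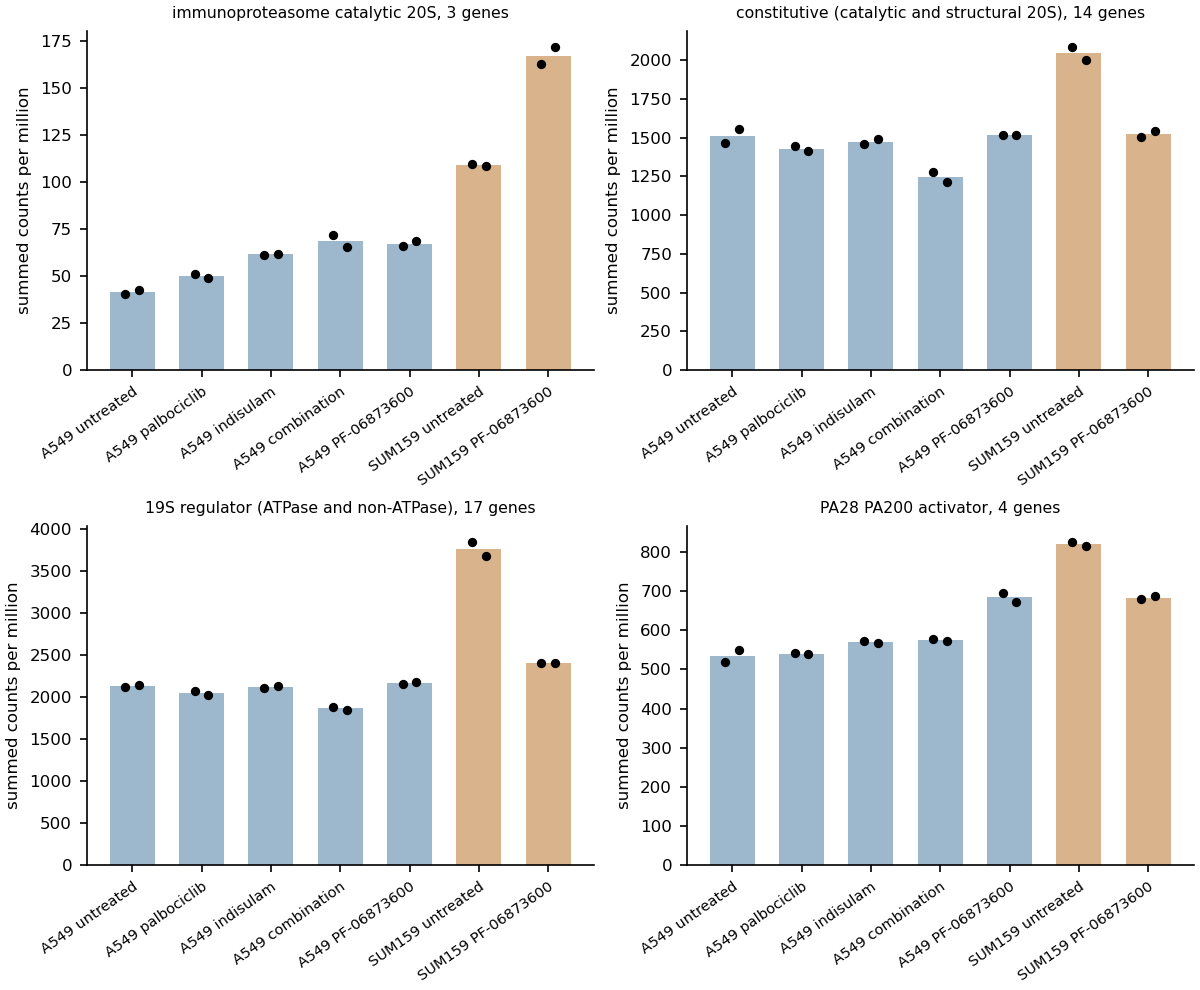
Summed CPM of 4 classes of proteasome genes (panels) in the 7 groups, with each bar the mean of 2 libraries and each point 1 library, A549 in blue and SUM159 in tan. The immunoproteasome sum was lowest in untreated A549, at 41.7 ± 1.52 CPM (mean ± SD, n = 2), and the 19S sum highest in untreated SUM159, at 3764 ± 119 CPM.

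The immunoproteasome catalytic genes had higher levels in drug-treated than in untreated libraries of both lines, apart from PSMB10 with palbociclib. PSMB9, the counterpart of PSMB6, was at 6.59 and 7.40 CPM in the 2 untreated A549 libraries and at 9.57 and 10.6 CPM with palbociclib. With indisulam it was at 14.3 and 14.5 CPM, with the combination at 17.9 and 17.3 CPM and with PF-06873600 at 11.3 and 12.2 CPM. In SUM159 its level was 37.4 and 36.4 CPM untreated and 69.7 and 70.5 CPM treated. Every treated library thus lay above both untreated libraries of its line. PSMB8, the counterpart of PSMB5, read 27.2 and 28.1 CPM in untreated A549, 33.5 and 31.7 with palbociclib, 39.4 and 39.3 with indisulam, 44.4 and 38.7 with the combination and 46.2 and 47.7 with PF-06873600. SUM159 gave 68.4 and 68.0 CPM of PSMB8 untreated and 83.7 and 90.9 treated, so its untreated libraries already lay above every A549 library. PSMB10, the counterpart of PSMB7, was low throughout: 6.80 and 7.20 CPM in untreated A549, 8.24 and 6.90 with palbociclib, where the groups overlapped, 7.26 and 8.19 with indisulam, 9.43 and 9.14 with the combination and 8.42 and 8.72 with PF-06873600. It was the one immunoproteasome gene with a lower level in untreated SUM159 than in untreated A549, at 3.92 and 4.32 CPM, and it reached 9.18 and 10.4 CPM there with PF-06873600. Leukocytes express these genes strongly, and 7 leukocyte markers summed to 7.48 and 6.80 CPM in untreated A549, 9.05 and 8.12 with palbociclib, 13.3 and 15.7 with indisulam, 11.3 and 10.6 with the combination and 12.5 and 12.4 with PF-06873600. In SUM159 that sum was 10.3 and 10.8 CPM untreated and 23.9 and 22.2 CPM treated, most of it from PTPRC. Of the 7, 4 exceeded the floor in some library and the defining markers CD3E and TYROBP were at or under it in all 14, and the part of this sum in the results was not tested.

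**Figure D2:**
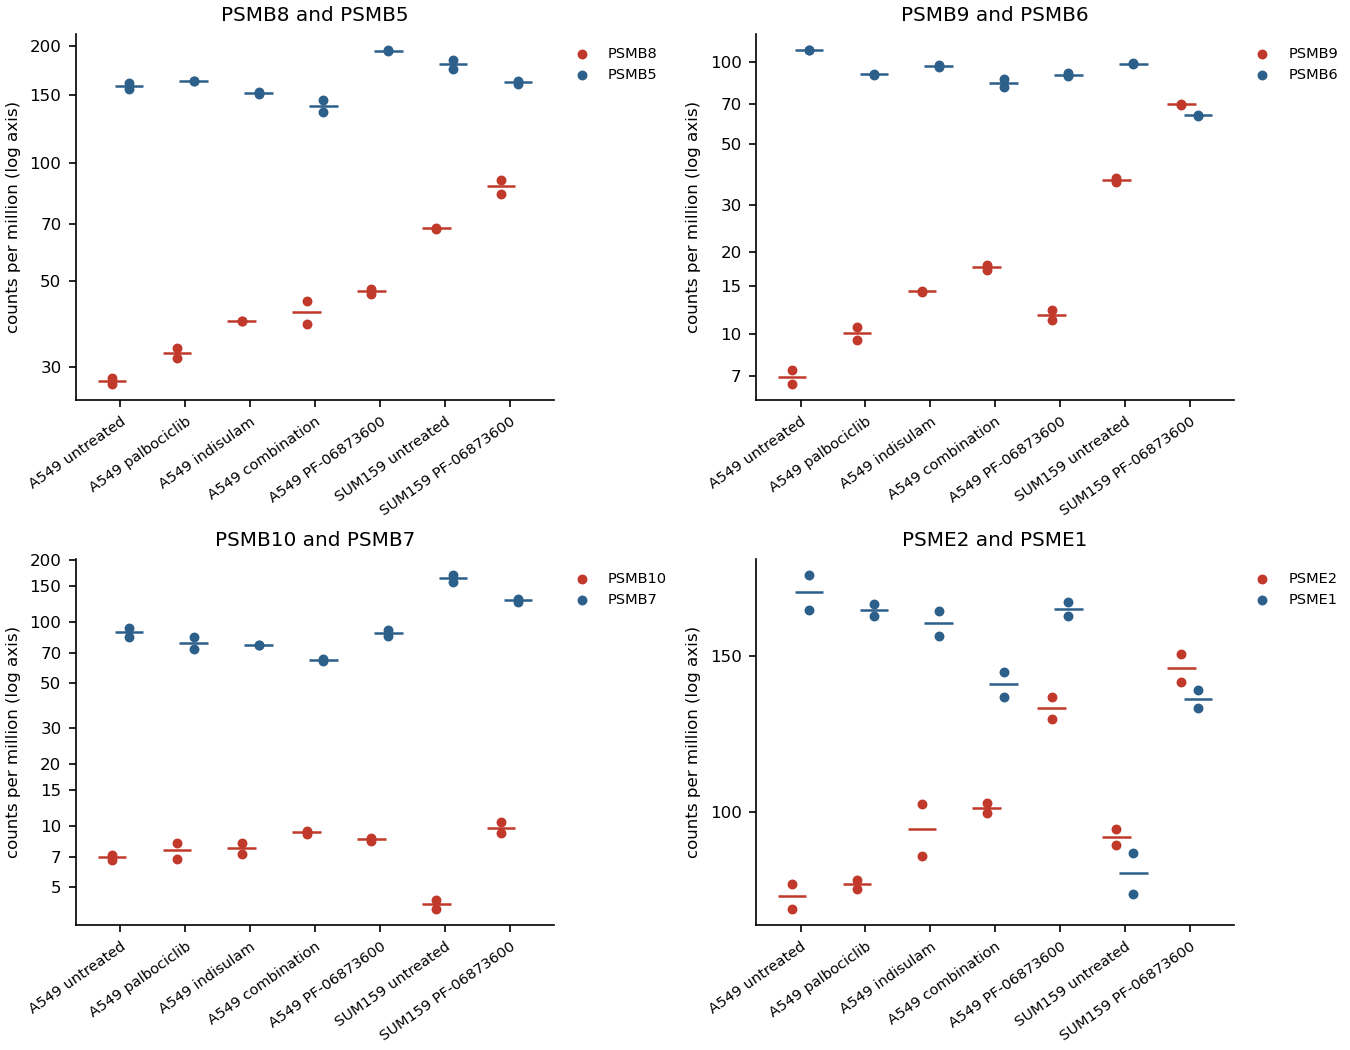
Level in CPM, on a log axis, of each immunoproteasome gene and PSME2 (red) with its counterpart (blue) in the 14 libraries, 1 point a library and a line at each group mean. PSMB9 in treated SUM159 (69.7 and 70.5 CPM) lies above PSMB6 (64.2 and 63.4 CPM), whereas in every other panel and group of the catalytic genes red lies under blue.

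Ratios of reads within a library do not depend on how libraries are scaled. For every 100 reads of PSMB6 there were 5.96 and 6.69 reads of PSMB9 in untreated A549, 10.5 and 11.8 with palbociclib, 14.8 and 14.8 with indisulam, 20.7 and 21.2 with the combination and 12.6 and 13.4 with PF-06873600. In SUM159 the ratio went from 37.7 and 37.0 untreated to 109 and 111 with PF-06873600, where the replacement subunit had more reads than the constitutive one. PSMB8 had 17.5 and 17.5 reads per 100 of PSMB5 in untreated A549 and 20.6 and 19.4 with palbociclib, 26.1 and 25.8 with indisulam, 30.4 and 28.6 with the combination and 23.7 and 24.4 with PF-06873600, and in SUM159 37.1 and 38.8 untreated and 52.3 and 55.7 treated. PSMB10 per 100 reads of PSMB7 stood at 8.08 and 7.73 in untreated A549 and at 14.4 and 14.3 with the combination, and in SUM159 at 2.33 and 2.75 untreated and 7.36 and 8.02 treated. In all 3 pairs and both lines, every treated library had a higher ratio than both untreated libraries. PSME2, which pairs with PSME1 in PA28, had 46.0 and 44.9 reads per 100 of PSME1 in untreated A549, 71.2 and 73.9 with the combination and 78.1 and 76.6 with PF-06873600. In SUM159 the PSME2 ratio overlapped between untreated (102 and 118) and treated (107 and 109.7) libraries. These ratios are given as a description with no test.

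With palbociclib alone 36 of 46 proteasome genes did not pass the test, and PSMB9 changed by the most. PSMB9 rose 1.45-fold, log2 fold change 0.53 ± 0.13, adjusted p = 0.0103 (± SE of the edgeR quasi-likelihood fit, Benjamini-Hochberg over all genes). The other members that rose were both lid subunits of the 19S, the deubiquitinase PSMD14 (0.24 ± 0.070) and PSMD12 (0.22 ± 0.064). In all, 3 of 46 were higher and 7 lower, where 8.3% and 7.4% of all 15780 genes tested were called higher and lower. The median log2 change was -0.035 over the members and -0.0056 over all genes. Those that fell were 5 19S genes and 2 core genes. PSMC3, an ATPase, was at 99.7 and 98.4 CPM untreated and 81.0 and 80.2 CPM treated, a log2 change of -0.30 ± 0.057, adjusted p = 0.00244. PSMB6, the caspase-like subunit, went from 111 and 111 to 90.8 and 89.7 CPM (-0.29 ± 0.058), and the groups did not overlap. The remaining named falls were those of the structural subunit PSMB1 (-0.26 ± 0.069) and the ATPase PSMC5 (-0.25 ± 0.057). Neither PSMB5 (0.043 ± 0.056) nor PSMB7 (-0.18 ± 0.075) passed the test. PSMB8 (0.24 ± 0.085) and PSMB10 (0.10 ± 0.14) did not pass it either, nor did any of the 4 PA28 and PA200 activator genes, with values from -0.065 ± 0.063 for PSME1 to 0.067 ± 0.055 for PSME3, or PSMF1 (-0.025 ± 0.060). The counts depended on single palbociclib libraries: without the first, 1 member was called higher and 4 lower, and without the second 0 and 2, PSMB9 and PSMC5 no longer among them. PSMB1 and both lid subunits lost their calls without either of these libraries. DESeq2 called 0 higher and 5 lower.

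Indisulam alone raised the immunoproteasome genes PSMB9 and PSMB8 and the activator PSME4, while 29 of 46 members did not pass the test. PSMB9 rose 2.06-fold (log2 1.04 ± 0.12, adjusted p = 7.79e-06). PSMB8 rose by 0.51 ± 0.084, adjusted p = 0.000199. PSMB10 at 0.14 ± 0.14 did not pass. PSME4, the PA200 activator, which caps the core without ubiquitin binding, was at 101 and 101 CPM in untreated and 138 and 136 CPM in treated libraries, with no overlap (log2 0.44 ± 0.056, adjusted p = 1.75e-05). PSME2 rose by 0.25 ± 0.072, adjusted p = 0.0109, a call not made under TMM scaling, by DESeq2 or without the first indisulam library. PSME1 (-0.12 ± 0.063) and PSME3 (-0.0032 ± 0.055) did not pass. Over the 46 genes 10 were higher and 7 lower, beside 28% higher and 17.5% lower among all genes, with medians of -0.0091 and 0.080. Among the 11 non-ATPase genes of the 19S, 4 rose, the largest being the lid subunit PSMD6 (0.39 ± 0.071). PSMD9, the chaperone of the 19S base, fell most, from 18.1 and 14.3 to 9.33 and 11.7 CPM (-0.62 ± 0.15, adjusted p = 0.00413), a call lost without the first indisulam library. PSMD13, a lid subunit, fell by 0.31 ± 0.060 on the log2 scale, the ATPase PSMC5 was at -0.27 ± 0.057, and the inhibitor PSMF1 went from 155 and 145 to 121 and 125 CPM (-0.29 ± 0.061, adjusted p = 0.00153). Of the constitutive catalytic genes, PSMB6 (-0.19 ± 0.058) and PSMB7 (-0.21 ± 0.075) fell, while PSMB5 at -0.059 ± 0.056 did not pass. Both falls were lost without either indisulam library, and that of PSMB7 also without the second untreated one. Under TMM scaling the split was 8 higher and 13 lower. The lower count was 12 without the first untreated library and 3 and 4 without the first and the second indisulam library.

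With both drugs, the immunoproteasome genes rose while the constitutive core and the ATPase ring fell. PSMB9 rose 2.52-fold against untreated (1.33 ± 0.12, adjusted p = 1.54e-07), PSMB8 1.50-fold (0.59 ± 0.083, adjusted p = 2.22e-05) and PSMB10 1.33-fold (0.41 ± 0.14, adjusted p = 0.0187). The PSMB10 call was lost with TMM scaling, with DESeq2 and without the first untreated or either combination library, and its reads are uncertain through the transcript overlap given above. Of the 14 constitutive core genes 10 fell and 0 rose, and of the 6 ATPase genes 5 fell. All 3 constitutive catalytic genes were among them: PSMB5 at -0.17 ± 0.056, PSMB6 at -0.40 ± 0.058 and PSMB7 at -0.46 ± 0.076. The PSMB5 call was lost without the second combination library and with only the compared groups in the fit. PSMC4 fell most, from 349.9 and 339.9 CPM in untreated to 201 and 195 CPM in combination libraries (-0.80 ± 0.052, adjusted p = 5.54e-09). This ATPase is one of the most abundant members per kilobase and was at 349 and 347 CPM with palbociclib and 345 and 347 CPM with indisulam, so only the combination libraries stood apart in the 10-day groups. PSMD9 (-0.69 ± 0.15), the core chaperone PSMG4 (-0.63 ± 0.14) and the alpha subunit PSMA6 (-0.56 ± 0.13) followed. PSME4 was at 156 and 157 CPM (0.63 ± 0.055, adjusted p = 1.35e-07) and PSMD12 rose by 0.43 ± 0.064. The PA28 pair split, with PSME2 higher (0.33 ± 0.071) and PSME1 lower (-0.34 ± 0.064), while PSME3 (0.022 ± 0.055) and PSMF1 (-0.12 ± 0.060) did not pass. In all, 7 of 46 rose and 22 fell, beside 35.1% higher and 30% lower among all genes, and the medians were -0.16 and 0.052.

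**Figure D3:**
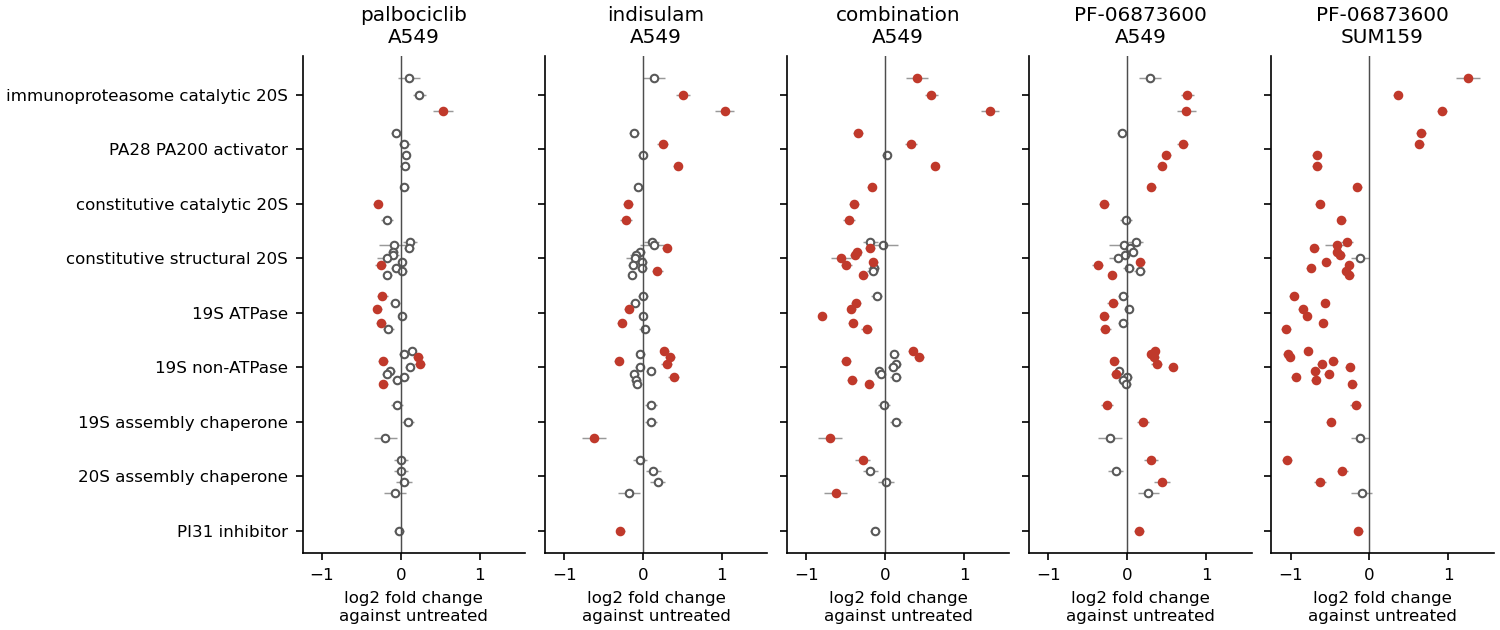
Log2 fold change against the untreated libraries of the same line, with bars of ± 1 SE, for each proteasome gene by class, for palbociclib, indisulam, the combination and PF-06873600 in A549 and PF-06873600 in SUM159. Filled red points passed the test at an adjusted p under 0.05, and open points did not. In treated SUM159 17 of 17 regulator genes lie under 0 as filled points.

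Against palbociclib alone, which asks what indisulam added, the immunoproteasome genes PSMB8 and PSMB9 and the activators PSME2 and PSME4 rose, and 10 of 14 core genes fell. PSMB9 rose by 0.80 ± 0.11, adjusted p = 2.16e-05, PSME4 by 0.58 ± 0.055, adjusted p = 4.17e-07, PSMB8 by 0.35 ± 0.082, adjusted p = 0.00191 and PSME2 by 0.29 ± 0.071, adjusted p = 0.00307, whereas PSMB10 at 0.30 ± 0.14 did not pass. PSMC4 (-0.81 ± 0.052), PSMG4 (-0.56 ± 0.14), PSMD9 (-0.49 ± 0.16) and PSMA6 (-0.38 ± 0.13) fell most. Of the constitutive core genes 10 of 14 fell, PSMB5 (-0.21 ± 0.056) and PSMB7 (-0.28 ± 0.077) included and PSMB6 (-0.10 ± 0.059) not. PSME1 fell by 0.28 ± 0.064 on the log2 scale, and PSME3 (-0.045 ± 0.055) and PSMF1 (-0.10 ± 0.060) did not pass. Over the 46 genes, 6 were higher and 19 lower, beside 33.5% and 26.9% of all genes, with medians of -0.11 and 0.055. TMM scaling gave 4 higher and 26 lower, and without the second combination library 8 were lower, with PSMB5, PSMB7, PSMA6, PSMG4 and PSMD9 among the calls lost. Without the first palbociclib library PSMB7 and PSMD9 did not pass, and without the second PSMA6 and PSMG4.

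Against indisulam alone, which asks what palbociclib added, 10 of 14 core and 4 of 6 ATPase genes fell and few genes rose. PSMC4 (-0.80 ± 0.052, adjusted p = 1.72e-08) was lowest, followed by the alpha subunits PSMA3 (-0.49 ± 0.061) and PSMA6 (-0.46 ± 0.13) and by PSMG4 (-0.45 ± 0.15). PSMA3 was at 120.2 and 123 CPM with indisulam and 85.6 and 86.9 CPM with the combination. The 3 genes that rose were PSMB9 (0.29 ± 0.11, adjusted p = 0.0356), PSME4 (0.19 ± 0.054, adjusted p = 0.00947) and PSMF1 (0.16 ± 0.061, adjusted p = 0.0428). The calls of PSMB9 and PSMF1 were lost without any 1 of the 4 compared libraries and without the low-count filter, that of PSMB9 also by DESeq2 and that of PSMF1 under TMM scaling and with the replicate block. The PSME4 call was lost without the second library of either group. PSMB8 (0.077 ± 0.080) overlapped between the groups, and PSMB10 (0.26 ± 0.14), PSME2 (0.080 ± 0.071), PSME3 (0.025 ± 0.055) and PSMB5 (-0.11 ± 0.056) did not pass. PSMB6 (-0.21 ± 0.059), PSMB7 (-0.24 ± 0.077) and PSME1 (-0.23 ± 0.064) fell. In all 22 of 46 fell, 10 of them core genes, beside 22% higher and 23.9% lower among all genes, with medians of -0.17 and -0.022. Without the second indisulam library 0 genes rose and 10 fell, without the second combination library 0 and 11, and without the first library of either group 1 rose. DESeq2 called 3 higher, PSMD2 in place of PSMB9, and 10 lower, with 5 of the 14 core genes, 3 of the 6 ATPase genes and 0 of the 3 constitutive catalytic genes among them. PSMA6, PSMG4, PSMB6 and PSMB7 lost their calls by DESeq2 and, with PSME1, without the second combination library. Leaving out an indisulam library ended the calls of PSMB7 (either), PSMG4 (the first), and PSMB6 and PSME1 (the second), and leaving out the first combination library that of PSMB7.

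The interaction of the 2 drugs is the log2 change with both minus the sum of the changes with each. It was negative for 7 of 46 genes and positive for none that passed. The negative count is near the share of 14.5% among all genes. PSMC4 had the largest, -0.82 ± 0.073, adjusted p = 1.5e-06, and neither drug alone moved it past the test (0.013 ± 0.051 with palbociclib and 0.0040 ± 0.051 with indisulam). PSMA3 (-0.60 ± 0.086, adjusted p = 0.000135), PSMA1 (-0.42 ± 0.13, adjusted p = 0.0315) and PSMD14 (-0.41 ± 0.10, adjusted p = 0.00682) came next, and PSMB3, PSMD6 and PSMD7 made up the rest. PSMA1 has reads uncertain through its overlap, and its call was lost, among others, with DESeq2 and without any 1 library other than the first untreated one. The immunoproteasome genes had interactions of -0.16 ± 0.12 for PSMB8, -0.24 ± 0.16 for PSMB9 and 0.16 ± 0.20 for PSMB10, none past the test. Those of PSMB5, PSMB6 and PSMB7 were -0.15 ± 0.079, 0.088 ± 0.082 and -0.066 ± 0.11. For the activators and the inhibitor they lay between -0.16 ± 0.090 for PSME1 and 0.19 ± 0.086 for PSMF1, with PSME2 at 0.036 ± 0.10, PSME3 at -0.042 ± 0.078 and PSME4 at 0.14 ± 0.078. Among all genes 10.7% had a positive and 14.5% a negative interaction, and the medians were -0.091 over the members and -0.021 over all genes. By edgeR 0 members were called positive, with 2 positive at an unadjusted p under 0.05, and DESeq2 called 0 positive, with 1 at an unadjusted p under 0.05. Without the second untreated library 2 were positive and 11 negative, and without the first untreated library 1 was positive. The negative count was 3 without the first palbociclib library, 4 without the second, 4 without the second indisulam library, 3 without the second combination library and 3 by DESeq2.

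PF-06873600 in A549 raised the 2 immunoproteasome genes PSMB8 and PSMB9, the PA28 gene PSME2 and several non-ATPase subunits of the 19S, while none of the ATPase genes rose. PSMB8 rose 1.70-fold (0.76 ± 0.082, adjusted p = 2.08e-06) and PSMB9 1.68-fold (0.75 ± 0.12, adjusted p = 0.000125), while PSMB10 at 0.29 ± 0.14 did not pass although its groups did not overlap. PSME2 was at 77.8 and 82.9 CPM untreated and 135 and 127 CPM treated (0.71 ± 0.071, adjusted p = 9.57e-07), and its partner PSME1 at 169 and 185 CPM untreated and 173 and 166 CPM treated (-0.062 ± 0.063), with overlapping groups. PSME3, the nuclear activator, was at 170.4 and 180.4 CPM untreated and 248 and 246 CPM treated (0.49 ± 0.055, adjusted p = 2.7e-06). PSME4 rose by 0.44 ± 0.056 and PSMF1 by 0.15 ± 0.060. PSMD2, the large base subunit that docks ubiquitin-like domains, was at 157 and 149.9 CPM untreated and 231 and 227 CPM treated (0.57 ± 0.054, adjusted p = 5.32e-07). Of the 11 non-ATPase genes 5 rose and 2 fell, while of the 6 ATPase genes 0 rose and 3 fell. By DESeq2 5 non-ATPase genes rose and 0 fell, and 0 ATPase genes rose and 2 fell. PSMB5 rose (0.30 ± 0.056), PSMB6 fell (-0.29 ± 0.058) and PSMB7 (-0.012 ± 0.075) did not pass, so the 3 constitutive catalytic genes did not move together. PSMB1 (-0.38 ± 0.069, adjusted p = 0.000325) was lowest, with the ATPases PSMC4 (-0.29 ± 0.052) and PSMC6 (-0.28 ± 0.074) after it. In all 16 of 46 rose and 9 fell, beside 28.5% and 27.8% of all genes, with medians of 0.018 and -0.0082. Without the first treated library the PSMC6 call was lost. The lower count was 5 without the first treated library and 4 without the second.

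Before treatment the 2 lines differed across most of the family, with higher levels in SUM159. Of 46 genes 34 were higher and 7 lower in untreated SUM159 than in untreated A549, beside 41.9% and 36.8% of the 17279 genes tested, and the medians were 0.66 and 0.078. TMM scaling shifted all log2 differences between the lines by -0.11, and the counts were then 30 higher and 8 lower. PSMB9 was 5.27-fold higher (2.40 ± 0.10, adjusted p = 2.2e-14) and PSMB8 2.46-fold higher (1.30 ± 0.076), but PSMB10 was lower (-0.76 ± 0.16, adjusted p = 0.000194). PSMD12 was at 61.1 and 61.3 CPM in A549 and 255 and 230.2 CPM in SUM159 (1.99 ± 0.063). The core chaperone PSMG1 (1.80 ± 0.080) and PSMD2 (1.78 ± 0.055) followed, and 10 of 11 non-ATPase genes were higher. Under TMM scaling or by DESeq2 9 of these 11 were higher, and PSMD4 did not pass. PSMC4 was the exception among the ATPases, at 349.9 and 339.9 CPM in A549 and 162 and 162 CPM in SUM159 (-1.09 ± 0.051, adjusted p = 2.46e-13), with the other 5 higher. PSME1 was lower in SUM159 (-1.05 ± 0.067), PSMD9 too (-0.36 ± 0.14, lost without the first A549 or the second SUM159 library), and PSME3 (1.37 ± 0.055) and PSME4 (0.89 ± 0.063) higher. PSMB7 was higher (0.87 ± 0.069) and PSMB6 lower (-0.16 ± 0.054). Of the small differences, those for PSMB5 (0.19 ± 0.054), PSME2 (0.22 ± 0.069) and PSMF1 (0.19 ± 0.060) did not pass under TMM scaling or with DESeq2, and those for PSMB5 and PSMF1 did not without the first SUM159 library. Line and any other difference between the cultures, such as medium, cannot be told apart.

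In SUM159 treated with PF-06873600 the family split: every immunoproteasome gene and both PA28 genes rose. Nearly all others fell, the activators PSME3 and PSME4 among them. PSMB10 rose 2.38-fold (1.25 ± 0.15, adjusted p = 3.57e-06), PSMB9 1.90-fold (0.92 ± 0.063, adjusted p = 4.62e-09) and PSMB8 1.28-fold (0.36 ± 0.060, adjusted p = 7.54e-05). PSME1 was at 89.8 and 80.9 CPM untreated and 131 and 137 CPM treated (0.65 ± 0.060, adjusted p = 1.49e-07), and PSME2 at 91.8 and 95.7 CPM untreated and 140.1 and 151 CPM treated (0.63 ± 0.057, adjusted p = 1.06e-07). These 5 were all the genes that rose, and 38 of 46 fell, beside 38.1% higher and 35.6% lower among the 15055 genes tested. The median log2 change was -0.47 over the members and 0.020 over all genes. All 17 genes of the 19S regulator fell, with a median of -0.69, and 13 of 14 constitutive core genes, with a median of -0.36. The ATPase PSMC6 fell most, from 129 and 120.1 to 60.8 and 59.2 CPM (-1.06 ± 0.058, adjusted p = 4.43e-10). The chaperone PSMG1 was at 109 and 98.4 CPM untreated and 48.4 and 52.1 CPM treated (-1.04 ± 0.066, adjusted p = 2.13e-09), and the lid subunit PSMD11, which also touches the core, at 393 and 372 CPM untreated and 189 and 185 CPM treated (-1.03 ± 0.057, adjusted p = 4.14e-10). PSMD12 went from 255 and 230.2 to 121 and 119.5 CPM (-1.01 ± 0.060, adjusted p = 9.74e-10). For each of these 4 both treated libraries lay under both untreated ones. PSMB6 (-0.63 ± 0.055), PSMB7 (-0.36 ± 0.056), PSMB5 (-0.15 ± 0.054), PSME3 (-0.67 ± 0.059), PSME4 (-0.66 ± 0.065) and PSMF1 (-0.14 ± 0.057) fell too. The 3 genes that did not pass were PSMA6 (-0.12 ± 0.12), PSMG4 (-0.10 ± 0.13) and PSMD9 (-0.12 ± 0.11). Leaving out the immunoproteasome, PSME1 and PSME2 removes all genes that rose, so 0 higher at the adjusted threshold follows from that choice. Of the remaining 41, 38 fell by edgeR, and at an unadjusted p under 0.05 again 38 fell and 0 rose. DESeq2 called 35 lower, without PSMA2, PSMD10 and PSMF1, and 0 of the 41 higher, also at an unadjusted p under 0.05. The calls of PSMB5 and PSMF1 were lost without either treated library, and that of PSMF1 also without the first untreated one.

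The same drug, dose and time in both lines allows the responses to be compared, and for most of the family the response was lower in SUM159. The difference of the log2 responses, SUM159 minus A549, was positive for 2 genes and negative for 34 of 46, beside 25.8% and 27.2% of all genes, with medians of -0.46 and 0.035. It was negative for all 17 regulator genes, and for 16 of them under TMM scaling or by DESeq2, where PSMD8 did not pass. The positive ones were PSMB10 (0.96 ± 0.20, adjusted p = 0.000543) and PSME1 (0.71 ± 0.093, adjusted p = 2.37e-06). PSMB9 did not differ past the test (0.17 ± 0.14), nor did PSME2 (-0.071 ± 0.10), whereas PSMB8 rose less in SUM159 (-0.41 ± 0.10, adjusted p = 0.00286). PSMG1 (-1.35 ± 0.11, adjusted p = 7.58e-09), PSMD12 (-1.35 ± 0.088, adjusted p = 2.26e-10), PSMD11 (-1.34 ± 0.081, adjusted p = 7.54e-11) and PSME3 (-1.16 ± 0.077, adjusted p = 2.83e-10) were lowest. For these 4 the change was upward in A549 and downward in SUM159, each past its own test. In all 13 genes had such opposite calls, the others being PSMA7, PSMB5, PSMD1, PSMD2, PSMD5, PSMD14, PSME4, PSMF1 and PSMG3. The share of all genes with opposite calls, or with like calls, in both lines was not counted. Of all genes, 28.5% were called higher and 27.8% lower in A549, and 38.1% and 35.6% in SUM159. PSMD5 and PSMF1 lost their A549 call by DESeq2, with the replicate block, without the low-count filter, and without either treated or the second untreated library. PSMF1 lost its SUM159 call by DESeq2 too, PSMA7 its A549 call and PSMB5 its SUM159 call without either treated library, and PSMG1 in A549 and PSMD2 in SUM159 without the first treated one. PSMB8, PSMB9 and PSME2 rose in both lines, and 9 genes fell in both: PSMB1, PSMB4, PSMB6, PSMC2, PSMC4, PSMC6, PSMD4, PSMD10 and PSMD13. Of these 9, PSMC2, PSMD4 and PSMD13 lost their A549 call by DESeq2, and PSMD10 its SUM159 call. With only the compared groups in the fit, PSMB4, PSMC2, PSMD4, PSMD10 and PSMD13 lost their A549 call. The other catalytic differences were -0.46 ± 0.077 for PSMB5, -0.34 ± 0.078 for PSMB6 and -0.35 ± 0.10 for PSMB7, and PSME4 (-1.10 ± 0.089) and PSMF1 (-0.29 ± 0.085) were negative as well. The response of SUM159 and the comparison of the untreated lines use the same untreated SUM159 libraries.

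**Figure D4:**
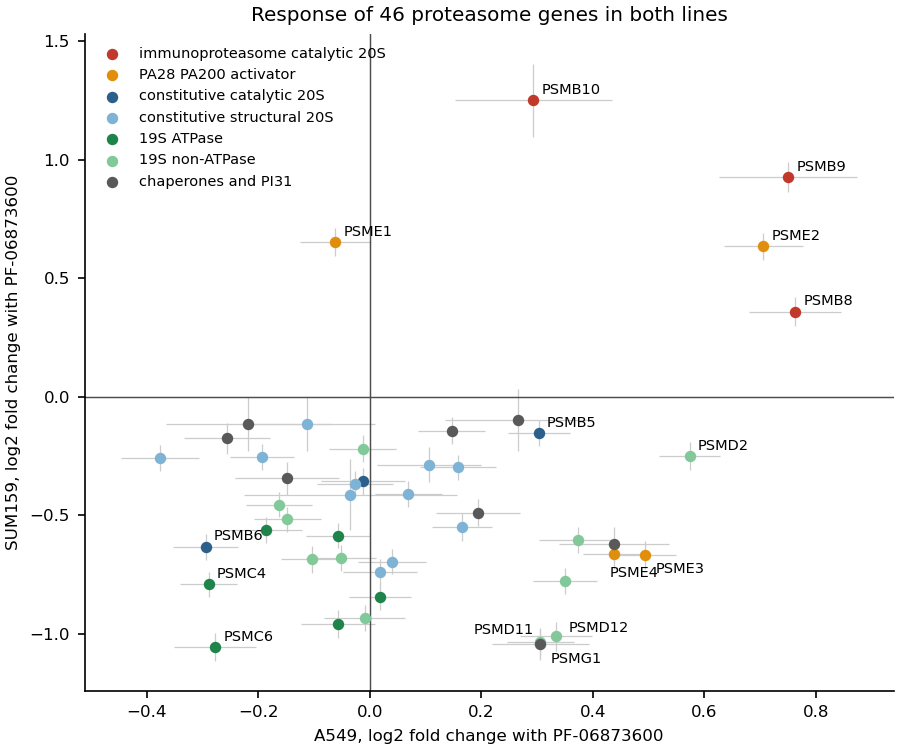
Log2 fold change with PF-06873600 in A549 (horizontal) and SUM159 (vertical), each ± 1 SE, for the 46 tested proteasome genes, coloured by class. The immunoproteasome genes, PSME1 and PSME2 lie above 0 on the vertical axis, and most other genes lie under it, on both sides of 0 on the horizontal axis.

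Genes of the pathway outside the family were taken from 6 lists with 46 tested genes. In A549, NFE2L1, the gene of the factor that raises subunit transcription, fell with palbociclib (-0.29 ± 0.057), indisulam (-0.30 ± 0.057), the combination (-0.15 ± 0.057) and PF-06873600 (-0.38 ± 0.057), and these comparisons share the untreated libraries. Its call with palbociclib was lost without the second palbociclib library, and that with the combination without the first untreated or either combination library. In SUM159 it rose (1.07 ± 0.059, adjusted p = 4.62e-10), from 331 and 322 to 679 and 689 CPM, in the libraries in which 38 subunit genes fell. NGLY1, the deglycosylase that NRF1 needs for its processing, was at 45.9 and 44.5 CPM in untreated A549, 15.8 and 15.2 with indisulam (-1.55 ± 0.080, adjusted p = 2e-09) and 18.5 and 18.1 with the combination (-1.31 ± 0.078, adjusted p = 2.16e-09), and at 40.9 and 42.9 with palbociclib. NFE2L3, a relative of NFE2L1, rose with the combination (1.40 ± 0.13). The core maturation gene POMP did not pass against untreated in any A549 group, with values from -0.16 ± 0.085 with the combination to 0.12 ± 0.084 with PF-06873600, or in treated SUM159 (-0.087 ± 0.057). Of the proteasome-bound ubiquitin enzymes, UCHL5 (-0.85 ± 0.063) and USP14 (-0.68 ± 0.053) fell in treated SUM159 and rose in A549 with PF-06873600 (0.36 ± 0.069 and 0.40 ± 0.061). Among 13 genes of ubiquitin, shuttling and unfolding, 2 rose and 9 fell in treated SUM159, beside 38.1% and 35.6% of all genes, and 6 rose and 4 fell with PF-06873600 in A549, beside 28.5% and 27.8%. ADRM1, a ubiquitin receptor of the 19S, was 0.33 ± 0.10 in A549 and -0.80 ± 0.058 in SUM159, with a difference of responses of -1.13 ± 0.13, adjusted p = 6.12e-07, and its A549 call was lost without the second untreated or the second treated library.

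The MHC class I presentation genes, whose products load the peptides that proteasomes make, were followed as a list of 13 beside the immunoproteasome. TAP1, the divergent neighbour of PSMB9, was at 24.9 and 22.8 CPM in untreated A549, 26.1 and 25.6 with palbociclib (0.12 ± 0.088), 43.1 and 39.4 with indisulam (0.79 ± 0.084), 62.6 and 57.7 with the combination (1.33 ± 0.082) and 50.6 and 52.9 with PF-06873600 (1.12 ± 0.083). Set beside the values of PSMB9 above, TAP1 did not pass with palbociclib where PSMB9 did, and the difference between them was not tested. That call of PSMB9 was lost by DESeq2, with only the compared groups in the fit and without the second palbociclib library. In SUM159 TAP1 went from 91.9 and 92.6 to 169 and 181 CPM (0.92 ± 0.056, adjusted p = 1.28e-09). Of the 13, 2 rose and 2 fell with palbociclib, beside 8.3% and 7.4% of all genes. With indisulam 5 rose and 4 fell (all genes, 28% and 17.5%), with the combination 9 and 3 (35.1% and 30%) and with PF-06873600 in A549 6 and 3 (28.5% and 27.8%). With the combination HLA-B (1.23 ± 0.10), HLA-C (1.23 ± 0.090), HLA-F (1.18 ± 0.14), ERAP2 (1.30 ± 0.22) and TAP2 (1.11 ± 0.12) rose at least 2-fold, as TAP1 did. In treated SUM159 all 13 rose, beside 38.1% of all genes, from TAP2 (0.35 ± 0.082) to HLA-F (2.04 ± 0.093). Of 5 interferon response regulators 3 rose with the combination, IRF1 (1.44 ± 0.072) and NLRC5 (1.37 ± 0.15), the transactivator of class I genes, by at least 2-fold, beside 35.1% higher among all genes. IRF1 and NLRC5 also rose with PF-06873600 in A549 (1.09 ± 0.073 and 1.05 ± 0.15) and in SUM159 (1.39 ± 0.065 and 0.42 ± 0.074). IRF9, a DNA-binding factor of the interferon response, was called lower with PF-06873600 in A549 (-1.12 ± 0.46, adjusted p = 0.0485), from 2.45 and 0.867 CPM untreated to 0.766 and 0.742 CPM treated, a call on few reads that was lost by DESeq2, without the first untreated library and without either treated one. In all 3 of the 5 rose and 1 fell in those A549 libraries and 4 rose in treated SUM159, beside 28.5%, 27.8% and 38.1% of all genes. With palbociclib 3 of the 5 rose, beside 8.3%, the lowest of them IRF1 at 0.38 ± 0.076.

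PF-06873600 was given for 7 days, and palbociclib and the combination for 10, so their values are set side by side without a test of the difference. Against the shared untreated libraries, PSMB8 changed by 0.76 ± 0.082 with PF-06873600, 0.24 ± 0.085 with palbociclib and 0.59 ± 0.083 with the combination. For PSMB9 the values were 0.75 ± 0.12, 0.53 ± 0.13 and 1.33 ± 0.12 in the same order. PSME2 stood at 0.71 ± 0.071, 0.044 ± 0.072 and 0.33 ± 0.071. PSMB5 was 0.30 ± 0.056 with PF-06873600, 0.043 ± 0.056 with palbociclib and -0.17 ± 0.056 with the combination, the last a call lost without the second combination library. PSMC4 read -0.29 ± 0.052, 0.013 ± 0.051 and -0.80 ± 0.052, and PSME3 0.49 ± 0.055, 0.067 ± 0.055 and 0.022 ± 0.055. The indisulam values of these genes are those given above.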

How the data were processed

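Polyadenylated RNA libraries, prepared with a stranded mRNA kit per the labels, were single-end sequenced and deposited as raw counts of reads per Ensembl gene. The authors made these counts with tools that the submitters' processing notes name as HISAT2 2.2.1 and HTSeq, on build GRCh38. The annotation release and the strand setting of the counting are not given in the sources used here. The 9 summary lines of each file were left out of totals and tests, with ambiguous reads at 3.68% to 4.40% and reads of low mapping quality at 10.3% to 13.9% of the gene counts. Symbols and positions came from GENCODE 44.

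Values per library are CPM on the total of gene counts, and levels between genes are CPM per kilobase of the canonical transcript. Tests used edgeR 4.0.16 in R 4.3.3 (glmQLFit and glmQLFTest, limma 3.58.1) on the deposited counts, with libraries scaled by total counts, filterByExpr, group means without a block, and Benjamini-Hochberg adjustment over all genes tested, called under an adjusted p of 0.05. One fit of the 10 A549 libraries tested 15780 genes, one of the 4 SUM159 libraries 15055, and one of all 14 tested 17279 for the comparisons between lines. The SE of a log2 fold change was taken as its absolute value over √F. The test was checked on simulated counts. Alternatives were TMM scaling, DESeq2 1.42.0, fits restricted to the groups compared, no filter, a filter at a mean of 50 counts, a replicate block and each library left out. Python 3.11.15, numpy 2.4.6, pandas 2.3.3 and matplotlib 3.10.9 were used for summaries and plots. Named genes were the 6 catalytic genes of both cores, the activators, the inhibitor, PSMA8 and PSMB11 always, up to 4 members with the largest and 4 with the lowest change among those past the test with groups that did not overlap, class extremes, and TAP1, NFE2L1, POMP and list genes past the test by at least 2-fold. Other genes named, such as UCHL5 or IRF1 in some comparisons and members listed by a shared pattern of calls, were added after their values were seen. Single values of a few list genes are not reported here. The members, lists and rules were chosen with earlier results of these data known.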

Additional observations from a re-analysis of the deposited data

Results flagged for a closer look

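Members of the family whose response to PF-06873600 differed between SUM159 and A549, by the interaction term of the edgeR fit, were flagged because 2 cell lines differed under the same contrast: 2 had a higher and 34 a lower response in SUM159. Among the genes named in the report, the log2 difference of the responses (SUM159 minus A549) was 0.9556 for PSMB10 and 0.7148 for PSME1. It was -1.351 for PSMG1, -1.347 for PSMD12, -1.341 for PSMD11, -1.161 for PSME3 and -1.102 for PSME4. Smaller negative differences were -0.4563 for PSMB5, -0.4052 for PSMB8, -0.3455 for PSMB7, -0.3382 for PSMB6 and -0.2914 for PSMF1. The SUM159 medium differs from that of A549, and its part in these differences cannot be told apart from that of the line.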

How the results depend on the processing

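Counts of members past the test moved by more than 1.5 times, or to or from 0, in 37 of the values under alternatives and stayed closer in 185, no result changed sign while called, and the cause was not tested. With only the compared groups in the fit, which leaves fewer libraries to estimate the spread, palbociclib gave 0 higher and 0 lower, indisulam 4 lower, the combination against indisulam 5 higher, the interaction 4 lower, PF-06873600 in A549 4 lower and untreated SUM159 against A549 4 lower. DESeq2 gave 0 higher with palbociclib, 10 lower for the combination against indisulam and 3 lower for the interaction, and TMM scaling 13 lower with indisulam. Without the low-count filter the combination against indisulam had 1 member higher, and with a mean of at least 50 counts 5, where the interaction had 1 positive.

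Leaving out 1 library at a time, with the lone library of a group assumed to vary like the others, the range was 0 to 3 higher and 2 to 9 lower for palbociclib, 3 to 12 lower for indisulam, 8 to 18 lower for the combination against palbociclib, 0 to 1 higher and 10 to 16 lower for the combination against indisulam, 0 to 2 positive and 3 to 11 negative for the interaction, and 4 to 9 lower for PF-06873600 in A549. The counts for the combination against untreated, for PF-06873600 in SUM159 and for the difference of the responses stayed within 1.5 times in every alternative run. With 0.5 added to each count, the mean log2 ratio was -2.75 for PSMB9 to PSMB6 with indisulam and -2.796 for PSMB10 to PSMB7 with the combination, each past a small replicate SD. Of the values of single genes under alternatives, 1554 kept their side of the threshold, 119 lost it and 10 gained it.

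Same-numbered libraries share only a number in the labels. With the replicate block, palbociclib had 3 higher and 7 lower, and in no comparison did the block change a member count by over 1.5 times. Under it PSMF1 and PSMA7 lost their calls and PSMC5 gained one in the combination against indisulam, PSMD4, PSMD5 and PSMF1 lost theirs in A549 with PF-06873600, PSMD6 in the interaction and PSMD8 in the difference of the responses. Correlations of deviations between same-numbered libraries ran from -0.19 to 0.14. With the numbers crossed, chosen after seeing the data, palbociclib had 3 higher and 8 lower, the combination against palbociclib 6 and 20, the interaction 0 and 8, and the untreated lines 34 and 7. Depth limits PSMA2, PSMB10 and PSMA6 most over the 14 libraries together, where they had the fewest reads among the tested members, and PSMB9 had about as few as PSMB10 in untreated A549.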
